A study of Mus musculus with 8 samples.

Results

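Serpins are a superfamily of proteins named for serine protease inhibitors. Most carry an exposed loop that a protease cuts as bait, after which the serpin snaps into a new fold and holds the enzyme in a dead complex. A few members inhibit papain-like cathepsins instead, and some, among them a collagen chaperone and hormone carriers, inhibit nothing. Clade b serpins lack a classical signal peptide and work largely inside cells, in skin chiefly in keratinocytes and leukocytes, where several guard against granzymes, neutrophil proteases and lysosomal cathepsins. The other clades are mostly secreted and control clotting, fibrinolysis, complement and tissue proteases, many of them from the liver.

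Members were every gene of the deposited table whose name was Serpin, a clade letter from a to i and a number, which gave 63 of 21885 named genes. Clade b held 28 of them and the other clades 35, of which 24 were in clade a, 3 in clade e, 2 each in clades f and i, and 1 each in clades c, d, g and h. They were measured by RNA-seq of mouse skin in 4 libraries treated with MC903 plus phytic acid and in 4 libraries treated with MC903 alone. MC903, or calcipotriol, is an analogue of vitamin D that sets off a dermatitis used as a mouse model of atopic dermatitis, and both groups carry it, so the phytic acid group was compared with inflamed skin and not with untreated skin. Phytic acid is the phosphorylated inositol in which plant seeds store phosphate. Strain, sex, age, body site, dose and time were not given in the sources used here. Nor do the labels say whether each library came from a separate mouse, so p-values measure the spread between libraries, which may be technical.

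Values are FPKM, fragments per kilobase of transcript and per unit of mapped fragments, which allows levels to be set side by side between genes. Library totals recovered from the FPKM steps were 38310033 to 42997272 reads with phytic acid and 31676934 to 37639476 reads with MC903 alone. The keratins of basal and suprabasal keratinocytes (Krt5, Krt14 and Krt10) and dermal collagen (Col1a1) were present in all 8 libraries. MC903 replicate 3 stood apart in its hair follicle markers, which summed to 4271 FPKM against 440.4 to 593 FPKM in the other MC903 libraries, and in its melanocyte markers, which summed to 125.9 FPKM against 4.09 to 5.56 FPKM. The phytic acid libraries lay between 22.6 and 30.9 FPKM for the hair follicle list and between 3.56 and 6.71 FPKM for the melanocyte list. Outside MC903 replicate 3, Tchh made up most of the hair follicle sum. It was at 458, 539 and 437 FPKM in MC903 replicates 1, 2 and 4 and at 17.8 to 25.3 FPKM with phytic acid. Krt25 and Krt71 were under 1 FPKM in all libraries but MC903 replicates 2 and 3. Because MC903 replicate 3 stood apart, the counts of called serpins are also given without it.

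Of the 63 serpin genes, 32 passed the expression filter of at least 1 FPKM in at least 4 libraries, and 27 of those were at 1 FPKM or more in all 8. With phytic acid, 10 of the 32 were higher and 5 were lower at an adjusted p under 0.05 (limma with Benjamini-Hochberg adjustment over 12165 genes, the test behind every adjusted p below). That is 46.9% of the tested serpins, beside 25.8% of all tested genes. Higher calls took 31.2% of the serpins and 14.2% of all tested genes, and lower calls 15.6% and 11.6%. Values of the phytic acid and MC903 groups did not overlap for 14 of the 32 serpins (43.8%), against 27.3% of all tested genes. Without MC903 replicate 3, 12 serpins were higher and 6 lower, and of all tested genes 19.9% were then higher and 12.8% lower. Without MC903 replicate 1, 6 serpins and 8.81% of all tested genes were higher. Serpinb13 and Serpinb6b passed the filter through the phytic acid libraries, which sets their direction in part, and without them 9 of 30 tested serpins were higher and 5 lower.

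In clade b, 17 of the 28 members were tested, of which 6 were higher with phytic acid (35.3%), 4 lower (23.5%) and 7 not called. Of all tested genes, 14.2% were higher and 11.6% lower. Without MC903 replicate 3 these counts were 7 higher and 4 lower, and 3 were higher without MC903 replicate 1 or without phytic acid replicate 1. Leaving out Serpinb13 and Serpinb6b, 5 of 15 were higher, 2 of them by at least 2-fold. The median log2 fold change of these 17 was 0.19, with phytic acid minus MC903 as the direction throughout, beside 0.05 for all tested genes. Of its calls, 3 higher and 3 lower ones were of at least 2-fold, in a table where 5.74% of all tested genes were called at that size in either direction. Of the 15 tested members of the other clades, 4 were higher (26.7%), 1 was lower (6.67%) and 10 were not called. Their median was 0.31, and without MC903 replicate 3 there were 5 higher and 2 lower. Of the 5 calls with all libraries, only that of Serpina9 was of at least 2-fold. In bulk skin, fewer cells of a type and less RNA per cell cannot be told apart for any of these genes. Fold changes are of log2(FPKM + 1), which understates the change of low genes, and the ± after one is its standard error.

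**Figure D1:**
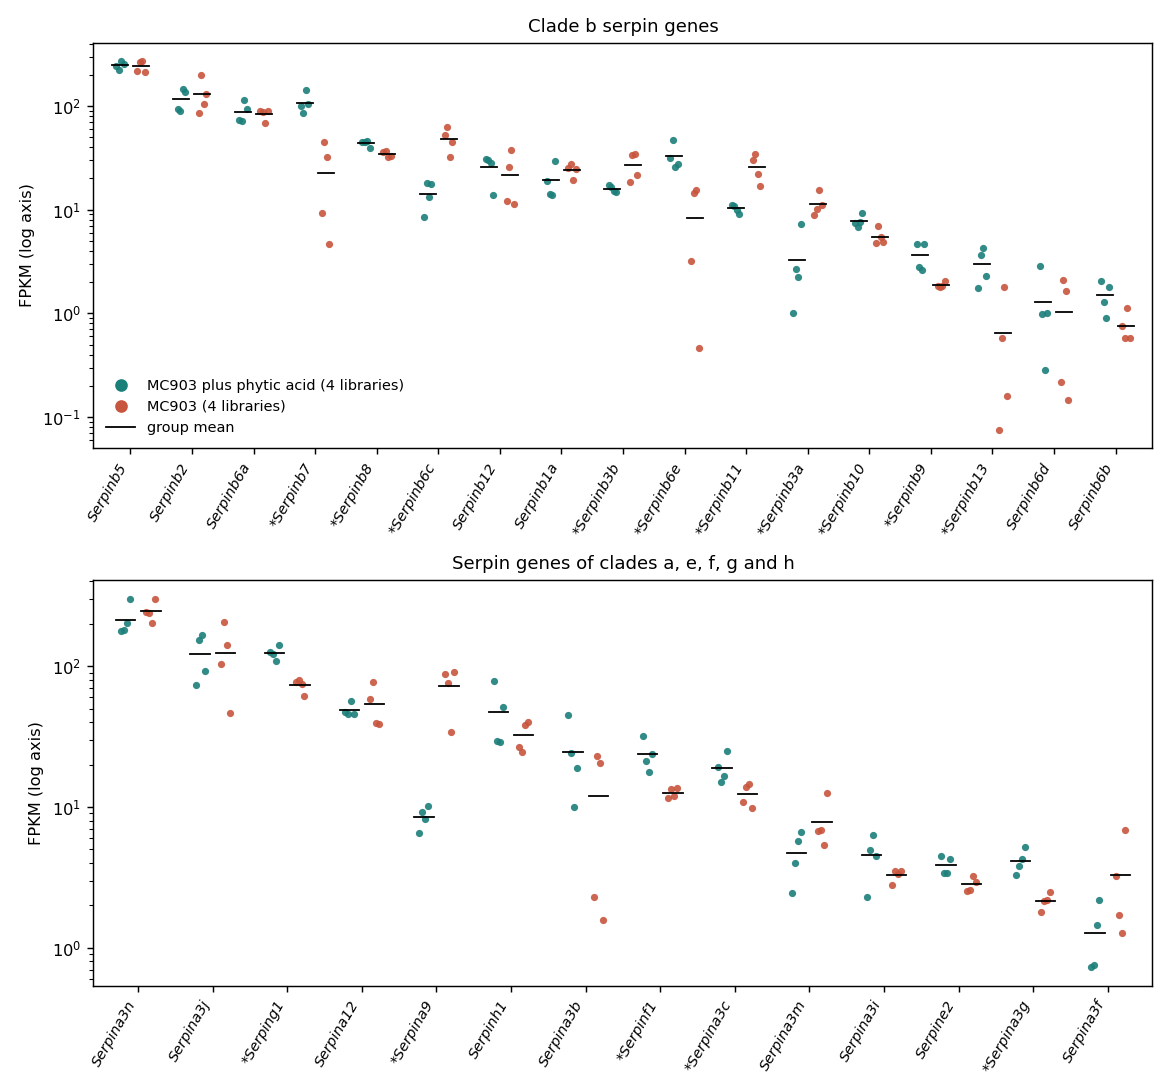
FPKM (log axis) of 31 of the 32 tested serpin genes in each library, clade b above and the other clades below, in order of mean level, with MC903 plus phytic acid left of MC903 for each gene. Points are libraries (n = 4 per group), black lines are group means and an asterisk marks an adjusted p under 0.05. Serpinb7, Serpinb6c, Serpinb11 and Serpina9 show groups that do not overlap.

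The summed level of the superfamily did not separate the groups. All 63 genes together came to 1399 ± 111.4 FPKM with phytic acid and 1356 ± 187 FPKM with MC903 alone (SD, n = 4 each). Clade b alone summed to 745 ± 78.9 FPKM with phytic acid and 691 ± 120.9 FPKM with MC903, and the other clades to 654 ± 53.7 FPKM with phytic acid and 665 ± 75.3 FPKM with MC903. These sums were carried by few genes, since the 5 most abundant members held 77.8% of the clade b sum and 82.3% of the sum of the other clades over all libraries. Ranks of single genes within the sums differed between the groups, as for Serpinb7 and Serpina9 below.

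Neither of the most abundant clade b genes passed the test. Serpinb5, which encodes maspin, an epithelial serpin with no known protease target in cells, was at 243, 223, 271 and 252 FPKM with MC903 plus phytic acid, against 217, 266, 270.1 and 211 FPKM with MC903 alone. The groups overlapped (log2 fold change 0.04 ± 0.13, limma adjusted p = 0.835), and the sign of this difference turned under median-of-ratios scaling (-0.041). Serpinb2, which encodes plasminogen activator inhibitor 2, a protein of the stressed epidermis and of macrophages, was at 93.4, 89.5, 146 and 136 FPKM with MC903 plus phytic acid, against 86.2, 201, 106 and 132 FPKM with MC903 alone. MC903 replicate 2 was the highest of the 8 and the groups overlapped (log2 fold change -0.13 ± 0.26, limma adjusted p = 0.741). Its sign turned when libraries were weighted by quality (0.13).

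Serpinb7 was the clade b gene with the largest increase. It encodes megsin, made in the upper epidermis, and its loss in people causes a palmoplantar keratosis. Its levels were 99.1, 86.4, 143 and 104 FPKM with MC903 plus phytic acid, against 9.32, 44.8, 32.2 and 4.71 FPKM with MC903 alone. Every phytic acid library stood above every MC903 library, and MC903 replicates 2 and 3 stood well above replicates 1 and 4. Means were 108 ± 24.2 FPKM with phytic acid and 22.8 ± 19.0 FPKM with MC903 alone (SD, n = 4 each), a ratio of 4.75 (log2 fold change 2.63 ± 0.58, limma adjusted p = 0.0105). Among the 32 tested serpins it ranked 6 by mean level with phytic acid and 15 with MC903 alone.

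Other keratinocyte members were higher as well. Serpinb13, known as headpin in humans, where it inhibits cathepsin L, was at 1.76, 3.67, 4.27 and 2.32 FPKM with MC903 plus phytic acid, against 0.0755, 0.579, 1.78 and 0.160 FPKM with MC903 alone. MC903 replicate 3 reached into the phytic acid range, so the groups overlapped, although the mean was 4.63 times as high with phytic acid (log2 fold change 1.34 ± 0.31, limma adjusted p = 0.0134). With a pseudocount of 0.1 its log2 fold change was 2.58, as low values weigh more there. As a single MC903 library reached 1 FPKM, its p is no independent sign of the direction. Serpinb8, whose human counterpart is lost in a peeling skin disease, was at 44.5, 44.9, 45.8 and 39.7 FPKM with MC903 plus phytic acid, against 35.9, 37.0, 32.3 and 33.1 FPKM with MC903 alone. All 4 phytic acid libraries lay above all 4 MC903 libraries, by a small step (log2 fold change 0.33 ± 0.09, limma adjusted p = 0.0225). That call was lost without phytic acid replicate 1 (adjusted p = 0.0561) or 3 (0.0568) or MC903 replicate 1 (0.0516) or 4 (0.0657), with a replicate block (0.0695), when centred on basal keratinocyte genes (0.101) and under median-of-ratios scaling (0.15).

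Serpinb6e stood next to Serpinb7 in size of change. It is 1 of 5 mouse genes of the Serpinb6 group, whose human relative inhibits cathepsin G. Levels were 31.6, 47.2, 25.8 and 27.5 FPKM with MC903 plus phytic acid, against 3.17, 14.3, 15.6 and 0.465 FPKM with MC903 alone. The groups did not overlap, while the MC903 libraries alone differed 33.4-fold between the lowest and the highest. The mean was 3.94 times as high with phytic acid (log2 fold change 2.40 ± 0.68, limma adjusted p = 0.0298), and the call was lost without phytic acid replicate 1 (adjusted p = 0.0618), 2 (0.0777) or 4 (0.0563) or MC903 replicate 1 (0.0802). It was also lost with a pseudocount of 0.01 (0.0501) and with no filter (0.0642).

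Members known from leukocytes were also among the higher calls. Serpinb9, the intracellular inhibitor of granzyme B that protects cytotoxic cells from their own enzyme, was at 4.63, 2.79, 2.60 and 4.68 FPKM with MC903 plus phytic acid, against 1.83, 1.79, 1.85 and 2.04 FPKM with MC903 alone. The MC903 libraries agreed closely and all lay below the phytic acid libraries (log2 fold change 0.67 ± 0.16, limma adjusted p = 0.0164). Serpinb10, bomapin, a nuclear serpin of the myeloid lineage, was at 7.51, 6.77, 7.53 and 9.35 FPKM with MC903 plus phytic acid, against 4.80, 6.94, 5.40 and 4.88 FPKM with MC903 alone, and MC903 replicate 2 overlapped the phytic acid group (log2 fold change 0.44 ± 0.13, limma adjusted p = 0.0366). Its call was lost without phytic acid replicate 1 (adjusted p = 0.0682), 3 (0.0607) or 4 (0.0917) or MC903 replicate 1 (0.105) or 4 (0.0982), and in 5 other alternatives, with adjusted p up to 0.106 (replicate block). Its annotated span, chr1:107529003-107549271, overlaps Serpinb2 on the same strand and 7.0% of its 50-base words also occur there, so reads of these genes may be shared. The annotation types Serpinb10 as a polymorphic pseudogene. Its values did not give whole reads, so the alternative on recovered reads left it out. Markers of T cells and natural killer cells summed to 13.7 to 31.5 FPKM with phytic acid and 6.05 to 9.53 FPKM with MC903 (4 of 5 tested higher), and those of Langerhans and dendritic cells to 213 to 470.2 FPKM with phytic acid and 44.1 to 107 FPKM with MC903 (4 of 4 tested higher). Neutrophil markers, which include S100a8 and S100a9, summed to 14.5 to 161 FPKM with phytic acid and 122 to 741 FPKM with MC903 (0 of 5 tested higher, 2 lower), and mast cell markers to 138 to 250.2 FPKM with phytic acid and 159 to 264 FPKM with MC903 (0 of 8 higher, 1 lower). No marker of these 4 lists was at 0 in all libraries. S100a8 and S100a9, which are also on the wound keratinocyte list, made up most of the neutrophil sum in every library. Ly6g, Mpo and Elane stayed under 1 FPKM in all libraries and were not tested, and Retnlg was not called. The sum is therefore no measure of neutrophil number. The part of these cell types in the changes of Serpinb9 and Serpinb10 was not tested.

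In clade b, 4 genes were lower with phytic acid. Serpinb6c, another member of the Serpinb6 group, was at 8.47, 17.9, 13.2 and 17.6 FPKM with MC903 plus phytic acid, against 52.6, 62.9, 32.2 and 45.2 FPKM with MC903 alone. The groups were far apart, and the mean was 3.37 times as high with MC903 alone (log2 fold change -1.70 ± 0.25, limma adjusted p = 0.00188). Serpinb11, an epithelial serpin of little known function, was at 11.2, 10.9, 9.95 and 9.06 FPKM with MC903 plus phytic acid, against 30.3, 34.1, 22.0 and 17.0 FPKM with MC903 alone. Phytic acid libraries lay within a narrow range below every MC903 library, whose mean was 2.52 times as high (log2 fold change -1.21 ± 0.19, limma adjusted p = 0.00248).

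Serpinb3a and Serpinb3b, the mouse relatives of the human squamous cell carcinoma antigens, which are raised in psoriasis and atopic dermatitis, were the other lower calls. Serpinb3a was at 1.01, 2.69, 2.22 and 7.25 FPKM with MC903 plus phytic acid, against 8.86, 10.2, 15.5 and 11.2 FPKM with MC903 alone. Phytic acid replicate 4 came closest to the MC903 libraries without reaching them (log2 fold change -1.71 ± 0.37, limma adjusted p = 0.00964). Serpinb3b was at 17.4, 16.5, 15.02 and 14.9 FPKM with MC903 plus phytic acid, against 18.6, 33.8, 34.4 and 21.6 FPKM with MC903 alone, with every MC903 library higher (log2 fold change -0.69 ± 0.19, limma adjusted p = 0.0269). That call was lost without phytic acid replicate 2 (adjusted p = 0.0548), 3 (0.0567) or 4 (0.0646) or MC903 replicate 2 (0.0714), with no filter (adjusted p = 0.0507) and with library weights (adjusted p = 0.101, log2 fold change -0.42). Of the 50-base words of Serpinb3a, 238 of 1582 also occur in other genes, and of those of Serpinb3b, 235 of 1604 do, so counting may have split their reads. Markers of wound keratinocytes, keratins, Sprr and S100 genes of injured or inflamed epidermis, summed to 780 to 1408 FPKM with phytic acid and 3709 to 8538 FPKM with MC903. None of the 8 was higher and 6 were lower. The highest phytic acid sum was in replicate 4, where Serpinb3a was the highest and Serpinb3b the lowest of that group. The lowest MC903 sum was in replicate 3, where both genes were at their highest. The part of wound keratinocytes in these changes was not tested.

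The remaining clade b members were not called. Serpinb6a, the mouse gene closest to the human cathepsin G inhibitor, was at 72.6, 72.4, 114 and 94.0 FPKM with MC903 plus phytic acid, against 88.8, 87.9, 67.9 and 89.8 FPKM with MC903 alone, with overlapping groups (log2 fold change 0.06 ± 0.17, limma adjusted p = 0.812) and a sign that turned under median-of-ratios scaling (-0.020). Serpinb12, an epithelial gene next to Serpinb5, was at 30.5, 30.3, 28.4 and 13.96 FPKM with MC903 plus phytic acid, against 12.04, 25.6, 38.0 and 11.3 FPKM with MC903 alone. Its spread within MC903 was wider than the difference between groups (log2 fold change 0.34 ± 0.39, limma adjusted p = 0.550). Serpinb1a, an inhibitor of neutrophil elastase and cathepsin G, averaged 19.2 ± 7.30 FPKM with phytic acid and 24.3 ± 3.54 FPKM with MC903 alone (SD, n = 4 each; log2 fold change -0.38 ± 0.22, limma adjusted p = 0.238), and was called lower without phytic acid replicate 4 (adjusted p = 0.0282). Serpinb6b and Serpinb6d stayed near the filter at group means under 2 FPKM, and Serpinb6b was just outside the threshold (log2 fold change 0.50 ± 0.17, limma adjusted p = 0.0533). It was called higher without phytic acid replicate 3 (adjusted p = 0.0205) or MC903 replicate 3 (0.0238), under median-of-ratios scaling (0.0457) and with library weights (0.00996).

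**Figure D2:**
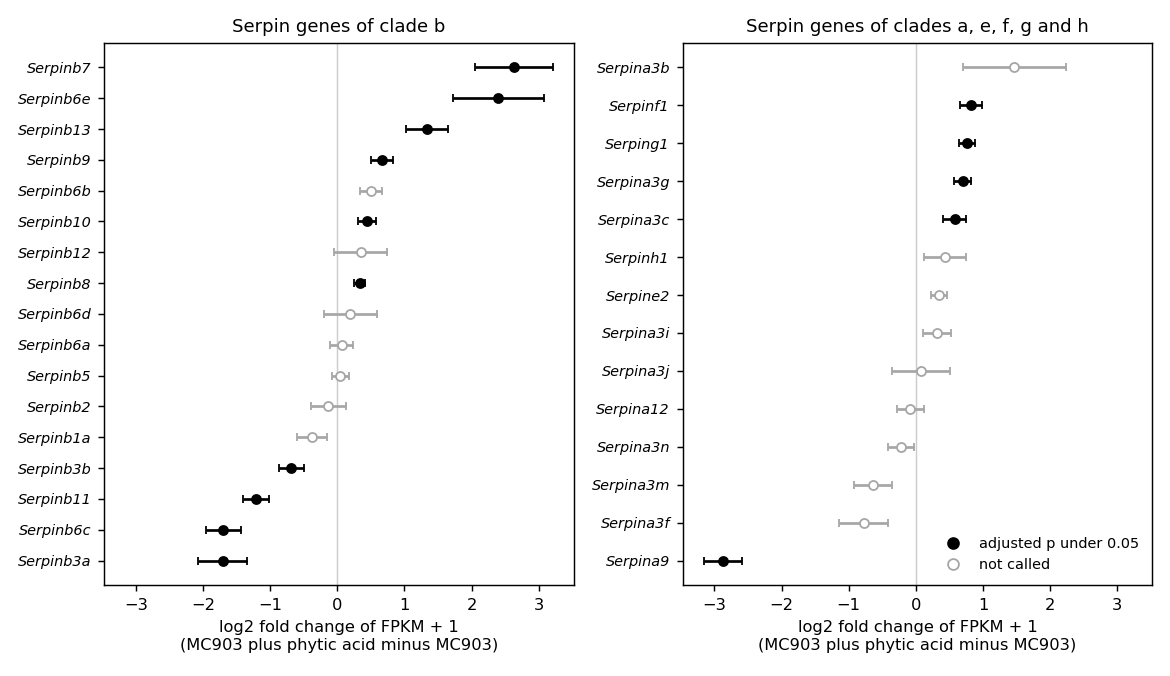
Log2 fold change of FPKM + 1, MC903 plus phytic acid minus MC903, for 31 of the 32 tested serpin genes, with standard errors from limma (n = 4 libraries per group). Filled points have an adjusted p under 0.05. The scale runs between Serpina9 at -2.87 and Serpinb7 at 2.63.

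Every clade b gene with a position lies in 1 of 2 clusters, and calls of both directions stand side by side in each. The chromosome 1 cluster (GRCm38, chr1:106861173-107610484) spans 749 kb and holds 12 members. Of its 10 tested members, 4 were higher (Serpinb13, Serpinb7, Serpinb10 and Serpinb8), 3 were lower (Serpinb3a, Serpinb3b and Serpinb11) and 3 were not called. Serpinb11 (chr1:107361198-107380475), lower with phytic acid, and Serpinb7 (chr1:107399655-107452689), higher with it, are direct neighbours among the serpins. The chromosome 13 cluster (chr13:32842092-34002794) spans 1161 kb and holds 15 members. Of its 7 tested members, 2 were higher (Serpinb9 and Serpinb6e), 1 was lower (Serpinb6c) and 4 were not called. Here too the higher Serpinb6e (chr13:33832345-33843408) and the lower Serpinb6c (chr13:33879816-33905708) adjoin. Of all tested genes, 14.2% were higher and 11.6% lower. The calls of Serpinb10, Serpinb8, Serpinb3b and Serpinb6e were each lost in some alternatives, and Serpinb13 passed the filter through the phytic acid libraries, which sets its direction in part.

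**Figure D3:**
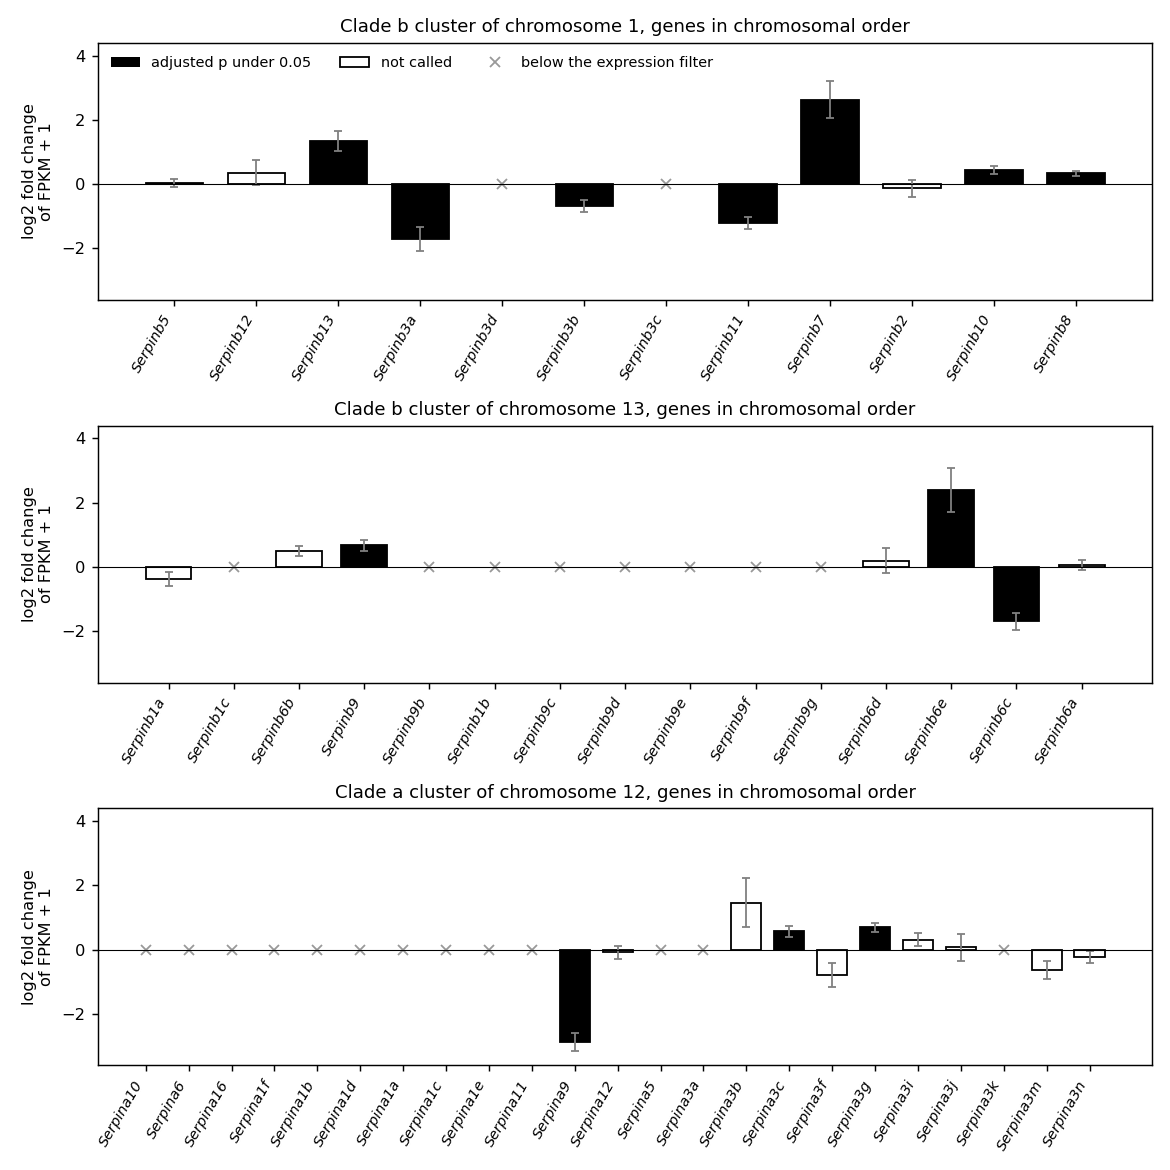
Log2 fold change of FPKM + 1, MC903 plus phytic acid minus MC903, with standard errors, for the serpin genes of 3 clusters in chromosomal order (not to scale). Black bars are called, open bars are not called and crosses are genes below the expression filter. Opposite calls adjoin at Serpinb11 and Serpinb7 and at Serpinb6e and Serpinb6c.

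Sequences just before the start sites of these neighbours are shown because adjoining genes moved in opposite directions. They are the 150 bases upstream of the RefSeq start (GRCm38.p6), written 5′ to 3′ on the strand of the gene. A RefSeq start can lie inside the GENCODE span, as for Serpinb7. Capitals mark matches to TGANTCA, the core of the site of AP-1, a factor of keratinocyte differentiation and stress, or to TATAAA, the core of a TATA box, on either strand.
Serpinb7: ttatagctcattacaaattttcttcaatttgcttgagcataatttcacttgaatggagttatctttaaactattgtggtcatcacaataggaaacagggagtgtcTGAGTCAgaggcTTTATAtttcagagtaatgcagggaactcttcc
Serpinb11: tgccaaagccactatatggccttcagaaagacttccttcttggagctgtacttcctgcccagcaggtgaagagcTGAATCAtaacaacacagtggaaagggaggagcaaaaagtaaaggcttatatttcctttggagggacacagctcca
Serpinb6e: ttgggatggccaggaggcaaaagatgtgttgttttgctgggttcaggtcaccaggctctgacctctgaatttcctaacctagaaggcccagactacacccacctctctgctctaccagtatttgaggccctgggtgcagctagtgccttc
Serpinb6c: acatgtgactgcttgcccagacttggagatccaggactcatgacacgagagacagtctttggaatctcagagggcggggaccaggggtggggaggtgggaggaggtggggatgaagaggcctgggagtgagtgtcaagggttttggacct
The intervals are Serpinb7 chr1:107422539-107422688, plus strand, Serpinb11 chr1:107362164-107362313, plus strand, Serpinb6e chr13:33843409-33843558, minus strand, and Serpinb6c chr13:33905192-33905341, minus strand. Serpinb7 holds an AP-1 core 45 bases and a TATA core 33 bases before its start, and Serpinb11 holds an AP-1 core at 76 bases. The Serpinb6e and Serpinb6c windows hold neither.

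The same letters occur in members that were higher, lower or not called. The chromosome 1 genes Serpinb8, Serpinb10, Serpinb5 and Serpinb2 and the lower Serpinb3a are shown for that range.
Serpinb8: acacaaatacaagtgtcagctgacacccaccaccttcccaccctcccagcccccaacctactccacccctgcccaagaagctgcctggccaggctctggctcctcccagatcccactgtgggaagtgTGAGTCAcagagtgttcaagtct
Serpinb10: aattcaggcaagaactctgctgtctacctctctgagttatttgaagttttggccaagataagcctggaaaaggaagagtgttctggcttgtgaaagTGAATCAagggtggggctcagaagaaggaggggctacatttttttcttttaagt
Serpinb5: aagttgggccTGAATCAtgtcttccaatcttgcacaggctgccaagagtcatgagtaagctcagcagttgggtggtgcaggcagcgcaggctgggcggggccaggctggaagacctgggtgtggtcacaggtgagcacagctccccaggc
Serpinb2: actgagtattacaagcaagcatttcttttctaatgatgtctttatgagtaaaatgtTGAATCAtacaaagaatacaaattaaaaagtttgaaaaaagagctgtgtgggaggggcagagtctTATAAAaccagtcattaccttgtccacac
Serpinb3a: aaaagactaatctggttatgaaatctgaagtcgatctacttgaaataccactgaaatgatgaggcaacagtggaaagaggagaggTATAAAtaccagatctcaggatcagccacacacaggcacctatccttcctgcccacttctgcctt
They were read from Serpinb8 chr1:107589856-107590005, plus strand, Serpinb10 chr1:107528853-107529002, plus strand, Serpinb5 chr1:106861025-106861174, plus strand, Serpinb2 chr1:107511273-107511422, plus strand (the first of its listed starts), and Serpinb3a chr1:107052304-107052453, minus strand. Serpinb2 pairs an AP-1 core at 94 bases with a TATA core at 29 bases, and Serpinb3a has a TATA core at 65 bases.

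Over the 250 bases before each start, searched on both strands, 54 of the 63 members had a RefSeq entry, and among those without one were Serpinb13, Serpinb1a, Serpina3k, Serpina3m, Serpina6, Serpina9, Serpina10 and Serping1. The AP-1 core stood before 7 of 11 clade b genes of the chromosome 1 cluster, 0 of 15 clade b genes elsewhere and 4 of 28 genes of the other clades, and before 7.82% of all 27025 genes with an entry. By call it stood before 3 of 8 higher, 1 of 4 lower and 3 of 14 tested members that were not called. TATAAA stood before 14 of 54 members (25.9%) and 14.33% of all genes. A STAT core, TTCNNNGAA, stood before 8 members (14.8%) and 8.13% of all genes, among them Serpina3g at 33 bases. The vitamin D response element of the DR3 form was found before 0 members and before 12 genes in all (0.04%). No match of one motif overlapped a match of another in the members. These are matches of letters and not binding sites.

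In the other clades, the most abundant tested members included protease inhibitors of the acute phase and of the blood. Serpina3n, an antichymotrypsin-like inhibitor raised in inflammation, was at 176, 180.4, 201 and 299 FPKM with MC903 plus phytic acid, against 242, 239, 203 and 302 FPKM with MC903 alone, with overlapping groups (log2 fold change -0.22 ± 0.19, limma adjusted p = 0.424). Serpina3j, of the same group, spread more than 2-fold within each group, at 73.7, 152, 166 and 92.4 FPKM with MC903 plus phytic acid, against 104, 205, 141 and 46.5 FPKM with MC903 alone (log2 fold change 0.07 ± 0.43, limma adjusted p = 0.917), and its sign turned under median-of-ratios scaling (-0.0082). Serpina12, vaspin, an adipose and keratinocyte inhibitor of kallikrein 7, was at 47.0, 46.0, 56.7 and 45.4 FPKM with MC903 plus phytic acid, against 58.2, 77.3, 39.7 and 39.0 FPKM with MC903 alone (log2 fold change -0.08 ± 0.21, limma adjusted p = 0.805).

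Serpina9 had the largest change of the superfamily. Its human counterpart, centerin, is known from germinal centre B cells. Levels were 6.49, 9.19, 8.17 and 10.1 FPKM with MC903 plus phytic acid, against 88.5, 76.1, 34.3 and 90.6 FPKM with MC903 alone. The highest phytic acid library was well under the lowest MC903 library, replicate 3, and the MC903 mean was 8.53 times the phytic acid mean (8.48 ± 1.54 FPKM with phytic acid and 72.4 ± 26.2 FPKM with MC903 alone; log2 fold change -2.87 ± 0.28, limma adjusted p = 0.000367). By mean level it ranked 20 among the 32 tested serpins with phytic acid and 7 with MC903 alone. It lies at chr12:103994743-104013755, where the predicted gene Gm28577 overlaps it on the same strand, and 1.2% of its 50-base words occur elsewhere. MC903 replicate 3 was also the lowest MC903 library in the marker sums of several cell types. These were wound keratinocytes, basal keratinocytes, neutrophils, macrophages, and nerve and Schwann cells. The part of any of these cells in the Serpina9 difference was not tested.

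Serping1 and Serpinf1, secreted by stromal cells among others, were higher. Serping1, the C1 inhibitor, which blocks the first proteases of complement and the contact system that makes bradykinin, was at 126, 121, 109 and 140.5 FPKM with MC903 plus phytic acid, against 76.8, 79.1, 74.8 and 61.6 FPKM with MC903 alone. No library of one group entered the range of the other, with a ratio of means of 1.70 (log2 fold change 0.76 ± 0.12, limma adjusted p = 0.00208). Serpinf1, pigment epithelium-derived factor, a member without protease inhibition that restrains vessel growth, was at 32.0, 21.1, 17.6 and 23.7 FPKM with MC903 plus phytic acid, against 11.6, 13.4, 11.9 and 13.7 FPKM with MC903 alone. All phytic acid libraries were higher than all MC903 libraries (log2 fold change 0.82 ± 0.16, limma adjusted p = 0.00652). Fibroblast markers summed to 572 to 1004 FPKM with phytic acid and 419.9 to 479.8 FPKM with MC903 (2 of 7 higher, 0 lower), and macrophage markers to 994 to 1397 FPKM with phytic acid and 583 to 957 FPKM with MC903 (3 of 7 higher, 0 lower). Adipocyte markers summed to 972, 634, 536 and 929.95 FPKM with phytic acid and to 179, 286, 482 and 208 FPKM with MC903 (2 of 5 tested higher, 0 lower, median log2 fold change 1.74). No marker of these lists was at 0 in all libraries. Their part in both changes was not tested.

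In the Serpina3 group on chromosome 12, which expanded in mice from the gene of a single human antichymotrypsin, Serpina3g and Serpina3c were higher. Serpina3g, a cathepsin inhibitor of activated leukocytes, was at 3.30, 3.81, 4.24 and 5.18 FPKM with MC903 plus phytic acid, against 1.78, 2.13, 2.18 and 2.503 FPKM with MC903 alone, without overlap (log2 fold change 0.70 ± 0.13, limma adjusted p = 0.00523). Serpina3c was at 19.4, 15.004, 16.7 and 25.0 FPKM with MC903 plus phytic acid, against 10.9, 13.9, 14.6 and 9.81 FPKM with MC903 alone (log2 fold change 0.58 ± 0.17, limma adjusted p = 0.0359), again without overlap. That call was lost without phytic acid replicate 1 (adjusted p = 0.0791) or 4 (0.0779) or MC903 replicate 1 (0.0971) or 4 (0.0958), and in 4 other alternatives, with adjusted p up to 0.0999 (replicate block). Serpina3b had a large fitted difference and a larger spread, at 45.3, 24.0, 10.03 and 19.0 FPKM with MC903 plus phytic acid, against 2.29, 23.1, 20.7 and 1.56 FPKM with MC903 alone (log2 fold change 1.46 ± 0.77, limma adjusted p = 0.191). Serpina3f, Serpina3i and Serpina3m were not called, with adjusted p of 0.15, 0.312 and 0.128. Without MC903 replicate 3 Serpina3f was called lower (0.0493), and without phytic acid replicate 1 Serpina3i was called higher (0.024). With library weights Serpina3f (0.0447) and Serpina3b (0.0261) were called. Between 4.3% and 19.1% of the 50-base words of Serpina3c, Serpina3n, Serpina3f, Serpina3g, Serpina3i and Serpina3m recur in other genes, so their separate values are uncertain. The whole chromosome 12 cluster (chr12:103614786-104414329, 800 kb, 23 members) had 10 tested members, of which 2 were higher, 1 was lower and 7 were not called. Beside these stand 14.2% higher and 11.6% lower of all tested genes.

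Serpine2 and Serpinh1, which act on tissue proteases and on matrix, were not called. Serpine2, protease nexin 1, an inhibitor of thrombin and plasminogen activators, was at 4.45, 3.39, 3.39 and 4.27 FPKM with MC903 plus phytic acid, against 2.55, 2.56, 3.24 and 2.95 FPKM with MC903 alone, without overlap but just outside the threshold (log2 fold change 0.35 ± 0.11, limma adjusted p = 0.0516). It was called higher without phytic acid replicate 3 (adjusted p = 0.0499) or MC903 replicate 3 (0.0307), with voom (0.0423) and with library weights (0.00713). Serpinh1, HSP47, the chaperone that folds collagen in the endoplasmic reticulum, was at 78.0, 29.3, 29.0 and 51.6 FPKM with MC903 plus phytic acid, against 26.8, 24.6, 38.5 and 39.8 FPKM with MC903 alone. Phytic acid replicate 1 was the highest and the groups overlapped (log2 fold change 0.43 ± 0.31, limma adjusted p = 0.337). The same library led in Col1a1, at 110.0 FPKM.

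Another 31 members were below the filter. Of these, 9 were listed at 0 in all libraries, namely Serpinb9c, Serpinb9d, Serpinb9f, Serpinb9g, Serpinb9h, Serpina3a, Serpina6, Serpina7 and Serpini2. For the 8 of them with a known length, the 3 reads that a count of 0 allows correspond to 0.029 to 0.076 FPKM, covering counting error only. The other 22 had some value, 6 in clade b and 16 elsewhere, and 19 of the 22 stayed under 100 reads in every library. The liver inhibitors of blood plasma were in this set, including antithrombin (Serpinc1), α2-antiplasmin (Serpinf2) and the α1-antitrypsin genes (Serpina1a to Serpina1f). Of the 22, 4 reached 1 FPKM in a library. Serpina1e did so in MC903 replicate 3 alone, at 3.17 FPKM, and Serpina3k reached 231 reads, the most of the 22. Serpinb1c was at 2.65, 0.895, 0.855 and 1.55 FPKM with MC903 plus phytic acid, against 0.0773, 0.822, 0.602 and 0.213 FPKM with MC903 alone, and Serpina11 was at 0.255, 0.255, 0.341 and 0.269 FPKM with MC903 plus phytic acid, against 1.06, 0.686, 0.584 and 0.408 FPKM with MC903 alone. Both kept the groups apart and neither was tested.

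Variation within groups was uneven across the members. The median ratio of the highest to the lowest of 4 libraries was 1.81 with phytic acid and 1.89 with MC903 over the 32 tested genes. It passed 3 for 5 genes with phytic acid and for 9 with MC903. The widest in MC903 were Serpinb6e (33.4), Serpinb13 (23.6), Serpina3b (14.8), Serpinb6d (14.3) and Serpinb7 (9.51), and the widest with phytic acid were Serpinb6d (9.91) and Serpinb3a (7.19). All 5 of those MC903 genes, and Serpinb12, were higher in MC903 replicates 2 and 3 than in replicates 1 and 4. So were Serpinb3b, which was lower with phytic acid, Serpinb5 and Serpina3j, which were not called, and Serpinb10 and Serpina3c, which were higher. The split was thus not particular to genes of one direction.

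The markers of suprabasal keratinocytes divided the libraries in the same way. They summed to 6064, 6376, 6503 and 4875 FPKM with phytic acid and to 1631, 3411, 4343 and 1472 FPKM with MC903. Of the 8 markers, 6 were higher with phytic acid and 0 lower (median log2 fold change 1.85), and none was at 0 in all libraries. MC903 replicates 2 and 3 were again the high ones, and phytic acid replicate 4 was the lowest of its group, as it was for Serpinb12. Serpinb7, Serpinb6e and Serpinb13 were instead lowest in phytic acid replicates 2, 3 and 1. MC903 replicates 2 and 3 also exceeded replicates 1 and 4 in the hair follicle, sebaceous gland, adipocyte and fibroblast sums. The same held for the T cell and natural killer cell sum and the Langerhans and dendritic cell sum. The part of any of these cells in the changes of Serpinb7, Serpinb6e and Serpinb13 was not tested. Basal keratinocyte markers summed to 2632 to 3112 FPKM with phytic acid and 4385 to 7942 FPKM with MC903 (2 of 8 higher, 1 lower). Krt14 carried that sum, and the other 7 markers summed to 1382 to 1581 FPKM with phytic acid and 976 to 1324 FPKM with MC903. Skeletal muscle markers summed to 7195 to 8376 FPKM with phytic acid and 3245 to 3806 FPKM with MC903 (6 of 7 higher, 0 lower).

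**Figure D4:**
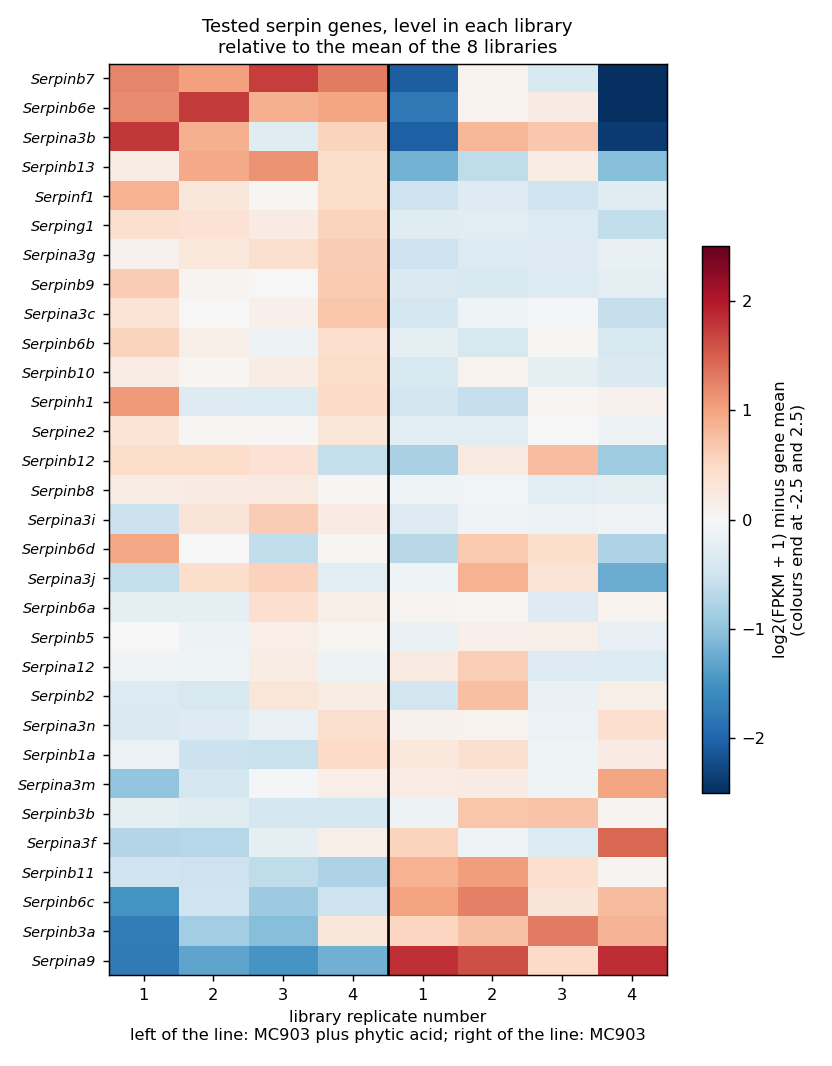
log2(FPKM + 1) of 31 of the 32 tested serpin genes in each library minus the mean of the gene over the 8 libraries (colours end at -2.5 and 2.5), with the 4 MC903 plus phytic acid libraries left of the line and the 4 MC903 libraries right of it, and genes ordered by fold change. Serpinb7, Serpinb6e and Serpina3b were lowest in MC903 replicates 1 and 4.

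The proteases that serpins inhibit were then read from lists chosen by function. In the epidermal serine proteases, the kallikreins, several of which cut corneodesmosomes, and membrane proteases, 2 of 17 tested genes were higher (11.8%) and 10 lower (58.8%) with phytic acid, beside 14.2% and 11.6% of all tested genes, with a median log2 fold change of -1.11. No higher call was left without phytic acid replicate 2, MC903 replicate 1 or MC903 replicate 4, or under median-of-ratios scaling, and lower calls numbered 9 or 10 in every alternative. Among the lower ones was Klk7, kallikrein 7, which Serpina12 inhibits (log2 fold change -1.25 ± 0.22, limma adjusted p = 0.00373). Klk13 averaged 11.98 ± 2.48 FPKM with phytic acid and 161 ± 80.2 FPKM with MC903 alone (SD, n = 4 each; log2 fold change -3.50 ± 0.36, limma adjusted p = 0.000409), Klk6 122 ± 40.2 FPKM with phytic acid and 488 ± 153 FPKM with MC903 alone (log2 fold change -2.00 ± 0.26, limma adjusted p = 0.00109) and Tmprss11e 5.47 ± 0.740 FPKM with phytic acid and 15.8 ± 1.95 FPKM with MC903 alone (log2 fold change -1.37 ± 0.12, limma adjusted p = 0.000236). 

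The list of papain-type cathepsins, which includes targets of Serpinb13 and Serpina3g and also holds legumain (Lgmn), did not move one way. Of its 11 tested genes, 2 were higher (18.2%) and 3 lower (27.3%), with a median of -0.02, beside 14.2% and 11.6% of all tested genes. Without MC903 replicate 3 these were 3 and 4, where 19.9% of all tested genes were higher and 12.8% lower. The lower calls were 2 when any library other than phytic acid replicate 4 or MC903 replicate 3 was left out. Ctsw, a cathepsin of cytotoxic lymphocytes, averaged 3.37 ± 1.55 FPKM with phytic acid and 0.897 ± 0.327 FPKM with MC903 alone (log2 fold change 1.13 ± 0.27, limma adjusted p = 0.0145). Ctsw reached 1 FPKM in a single MC903 library, so it passed the filter through the group where it was high. Ctsk, which degrades collagen, averaged 144 ± 15.3 FPKM with phytic acid and 272 ± 68.8 FPKM with MC903 alone (log2 fold change -0.88 ± 0.18, limma adjusted p = 0.00893). Ctso averaged 8.45 ± 1.001 FPKM with phytic acid and 5.43 ± 0.246 FPKM with MC903 alone (log2 fold change 0.55 ± 0.10, limma adjusted p = 0.00392). Ctsl, cathepsin L, which human headpin inhibits, averaged 146 ± 31.2 FPKM with phytic acid and 310 ± 90.1 FPKM with MC903 alone (log2 fold change -1.05 ± 0.25, limma adjusted p = 0.0146). The list of leukocyte serine proteases includes targets of Serpinb9, Serpinb6a and Serpinb1a. Of these targets, Elane (neutrophil elastase) and Ctsg (cathepsin G) were below the filter and not tested. Gzmb, granzyme B, was tested and not called (log2 fold change 0.36 ± 0.32, limma adjusted p = 0.431). The list had 7 tested genes, of which 1 was higher and 1 lower (14.3% each, median -0.04), near the 14.2% and 11.6% of all tested genes. The higher one was Gzmc, a granzyme, at 16.6 ± 11.6 FPKM with phytic acid and 1.29 ± 0.939 FPKM with MC903 alone (log2 fold change 2.66 ± 0.58, limma adjusted p = 0.00993), and the lower was the mast cell tryptase Tpsab1, at 0.651 ± 0.260 FPKM with phytic acid and 1.86 ± 0.758 FPKM with MC903 alone (log2 fold change -0.76 ± 0.20, limma adjusted p = 0.0202). Tpsab1 reached 1 FPKM in a single phytic acid library, so it too passed the filter through the group where it was high. Its call was lost without phytic acid replicate 1 (adjusted p = 0.0554) or 4 (0.0524), without MC903 replicate 1 (0.0619) or 4 (0.0552) and with the replicate block (0.064).

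Genes of plasminogen activation and clotting, the pathway of Serpinb2, had 3 of 15 tested higher and 2 lower (13.3%), with both shares near the 14.2% and 11.6% of all tested genes (median 0.14). The higher calls were 2 without phytic acid replicate 1 or MC903 replicate 1 or 2, and the lower 3 without phytic acid replicate 4. At a mean of at least 5 FPKM no gene was higher. That filter left the 3 higher genes, Plat, F7 and F10, untested, so it says nothing of their calls. Plat, tissue plasminogen activator, averaged 4.62 ± 0.554 FPKM with phytic acid and 2.74 ± 0.665 FPKM with MC903 alone (log2 fold change 0.60 ± 0.14, limma adjusted p = 0.0125), and the clotting factor gene F7 3.68 ± 1.18 FPKM with phytic acid and 1.46 ± 0.391 FPKM with MC903 alone (log2 fold change 0.90 ± 0.20, limma adjusted p = 0.0111). Thbd, thrombomodulin, averaged 12.3 ± 2.05 FPKM with phytic acid and 19.9 ± 2.45 FPKM with MC903 alone (log2 fold change -0.66 ± 0.13, limma adjusted p = 0.00600). Among the C1 and contact system genes around Serping1, 2 of 8 tested were higher and 2 lower (25.0% each, median 0.15), with 1 lower without replicate 1 or 4 of either group. The C1 protease genes C1ra and C1s1 were the higher ones, at 24.1 ± 3.28 FPKM with phytic acid and 14.6 ± 1.49 FPKM with MC903 alone and at 41.2 ± 6.26 FPKM with phytic acid and 25.9 ± 1.16 FPKM with MC903 alone (limma adjusted p = 0.00323 and 0.00406). Bdkrb2, the bradykinin receptor, averaged 0.660 ± 0.128 FPKM with phytic acid and 3.08 ± 0.486 FPKM with MC903 alone (log2 fold change -1.29 ± 0.12, limma adjusted p = 0.000292). No phytic acid library reached 1 FPKM, so it passed the filter through the MC903 libraries alone.

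Inhibitors of other families gave 4 higher (21.1%) and 6 lower (31.6%) calls among 19 tested genes (median -0.41), beside 14.2% and 11.6% of all tested genes. The higher calls were 2 without phytic acid replicate 1 or MC903 replicate 1, 2 or 4, where 8.81% to 9.86% of all tested genes were higher. Without MC903 replicate 3 there were 6 higher and 10 lower, and of all tested genes 19.9% were then higher and 12.8% lower. Stfa2, a stefin of neutrophils and inflamed epidermis, averaged 82.0 ± 81.2 FPKM with phytic acid and 1061 ± 346 FPKM with MC903 alone (log2 fold change -4.02 ± 0.52, limma adjusted p = 0.00103), and Wfdc12 1.15 ± 0.516 FPKM with phytic acid and 18.1 ± 10.6 FPKM with MC903 alone (log2 fold change -3.02 ± 0.35, limma adjusted p = 0.00065). Cst3, cystatin C, a secreted cathepsin inhibitor, averaged 417 ± 41.7 FPKM with phytic acid and 198 ± 23.3 FPKM with MC903 alone (log2 fold change 1.07 ± 0.13, limma adjusted p = 0.000763). The collagen folding and secretion list around Serpinh1 had 0 of 21 tested genes higher and 1 lower (4.76%), P4hb, at 153 ± 12.6 FPKM with phytic acid and 223 ± 33.0 FPKM with MC903 alone (log2 fold change -0.53 ± 0.13, limma adjusted p = 0.0157). That call was lost without MC903 replicate 1 (adjusted p = 0.0505). At an unadjusted p under 0.05, 4 genes of the list were higher in limma, and voom on the recovered reads called none higher after adjustment. Higher calls were 2 without phytic acid replicate 3, 1 without MC903 replicate 3 or 4 and 7 with library weights, where 23.6% of all tested genes were higher. Its median of 0.17 stood beside 0.05 for all tested genes. Without MC903 replicate 1, 9 genes of the 7 lists were higher, against 14 with all libraries, and of all tested genes 8.81%, against 14.2%.

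**Figure D5:**
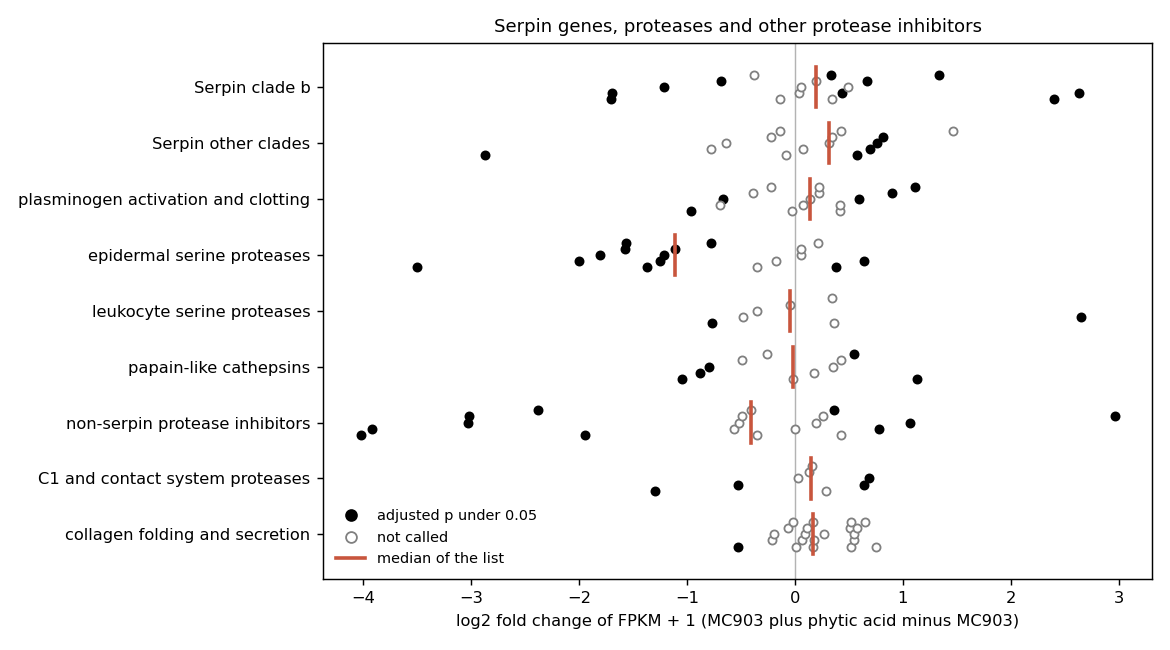
Log2 fold change of FPKM + 1, MC903 plus phytic acid minus MC903, for each tested gene (points, filled at an adjusted p under 0.05) of the serpin clades and of 7 lists of proteases, other inhibitors and collagen folding genes, with list medians as vertical lines. The epidermal serine proteases have the lowest median, -1.11, and clade b serpins and the non-serpin inhibitors spread to both sides.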

How the data were processed

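RNA-seq was made from 8 mouse skin libraries, with total RNA extracted by TRIzol and libraries prepared with a SMARTER mRNA-seq kit, per the labels' protocols. The deposited table holds 1 FPKM value per gene and library, made by the authors. Tools listed in the submitters' processing notes are cutadapt, HISAT2, TopHat2 and DESeq, on mm10, with no roles or versions. The annotation, strand setting and handling of multimapping reads were not given in the sources used here. Values of overlapping genes and close copies are therefore uncertain. Because FPKM divides by the total of a library, abundant genes that change shift the rest.

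The table has 21959 rows. Those without a name, 51 rows with 0.016% to 0.024% of each column's sum, were dropped, and of 21 names given more than once the copy of highest mean stayed. Coordinates are GENCODE GRCm38, counted from 1. Multiplied by exon length, FPKM gave whole reads (within 0.05 in all libraries) for 17509 of 17980 genes (97.4%), which set the depth. Replicate pairs differed by a chi-square per gene of 53.5 to 195, far above counting noise.

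Genes with at least 1 FPKM in at least 4 libraries (12165) were tested as log2(FPKM + 1) with limma 3.58.1 in R 4.3.3 (lmFit, eBayes with trend), two-sided, with Benjamini-Hochberg adjustment over all tested genes and calls under 0.05. The fit was tested on simulated data. The 19 alternatives were pseudocounts of 0.1 and 0.01, no filter, a mean of at least 5 FPKM, TPM, median-of-ratios and quantile scaling, centring on basal keratinocyte genes, voom on the recovered reads, library weights, a replicate block, and each library left out. Marker sums add FPKM over a list. Words of 50 bases came from GENCODE exons and promoters from RefSeq.

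The members and lists were chosen with earlier results of these data known. Members named in detail were those called at 2-fold or more, the 5 of highest mean in clade b and in the other clades, and Serpinh1, Serping1, Serpinb5, Serpinb2, Serpinb3a and Serpina3n. From each partner list the 3 called genes of lowest p were named, with Klk7, Ctsl, Gzmb, Elane and Ctsg added as targets of members. Other members are named to account for the rest, and the values of 1 member, which stays in the counts, are not reported here.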

Additional observations from a re-analysis of the deposited data

Results flagged for a closer look

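Single libraries stood apart from the other 3 of their group in 6 of 100 gene and group pairs examined by Dixon's test, where chance gives about 5%. Serpinb12 was at 13.96 FPKM in phytic acid replicate 4, against 28.4 FPKM in the next lowest library of that group. Serpinb6a was at 67.9 FPKM in MC903 replicate 3, against 87.9 FPKM in the next lowest. Serpina12 was at 56.7 FPKM in phytic acid replicate 3, against 47.0 FPKM in the next highest. Among the partner genes, Thbd was at 15.3 FPKM in phytic acid replicate 1 with the next at 11.5 FPKM. Ctso was at 9.94 FPKM in phytic acid replicate 4 and at 5.79 FPKM in MC903 replicate 1, each the highest of its group. Neither Serpinb12, Serpinb6a nor Serpina12 was called in the comparison of groups.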

How the results depend on the processing

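Of the 15 called serpins, 10 were called in every one of the 19 alternatives that tested them (Serpinb11, Serpinb13, Serpinb3a, Serpinb6c, Serpinb7, Serpinb9, Serpina3g, Serpina9, Serpinf1 and Serping1, where Serpinb13 passed the filter through the phytic acid group), and Serpinb10, Serpinb3b, Serpinb6e, Serpinb8 and Serpina3c were lost in some. Of the 17 not called, 6 were called in some alternative. Leaving out 1 library gave 6 to 12 serpins higher and 4 to 6 lower, with clade b at 3 to 7 higher (3 without phytic acid replicate 1 or MC903 replicate 1) and 3 to 4 lower, and the other clades at 3 to 5 higher and 1 to 2 lower. All tested genes then gave 1072 (without MC903 replicate 1) to 2418 (without MC903 replicate 3) higher and 941 to 1561 lower, and partner genes 9 to 18 higher and 20 to 30 lower. Lower calls in the other clades came to 2 with no filter and with library weights. Higher calls over all genes were 2865 with library weights (23.6%) and 1098 at a mean of at least 5 FPKM. The latter is 14.5% of the 7591 genes tested in that setting, against 14.2% in the main comparison. Over partner genes they were 22 and 9, and the filter at that mean left some partner genes untested. The split of all calls was 1469 higher and 1828 lower under median-of-ratios scaling and 1652 and 1748 under quantile scaling, against 1722 and 1412. Replicate numbers did not pair the libraries (correlations of same-numbered libraries -0.283, -0.105, -0.286 and 0.225), and the replicate block gave 7 serpins higher and 5 lower, and 1098 and 948 over all genes.

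Among the members reported, the sign turned in 19 values of 6 members, none of them called. Under other scalings or weights these were Serpinb2 (0.13, weights), Serpinb5 (-0.041, median-of-ratios), Serpinb6a (-0.020, median-of-ratios, and -0.0035, weights), Serpinb6d (-0.030, quantile) and Serpina3j (-0.0082, median-of-ratios). With 1 library left out they ranged from -0.31 to 0.095 for Serpinb2, -0.019 to 0.10 for Serpinb5, -0.070 to 0.15 for Serpinb6a, -0.094 to 0.44 for Serpinb6d, -0.21 to 0.11 for Serpina12 and -0.33 to 0.38 for Serpina3j. The cause was not tested. Members under about 1 FPKM rest on few reads.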
